A study of Mus musculus with 4 samples.

Results

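Double-positive (DP) thymocytes with transcripts of late mitosis were picked out of single-cell profiles of control and Tox4 cKO thymi by the UMIs (unique molecular identifiers, 1 per captured transcript) of a few genes. A droplet was taken with at least 200 genes, at least 2000 UMIs and at most 10% mitochondrial UMIs. It needed at least 2 UMIs of the coreceptor genes Cd4, Cd8a and Cd8b1, at least 4 of the late-mitosis set (Cdc20, Cenpa, Ccnb1, Ccnb2 and Dlgap5), fewer than 6 of the early-mitosis set (Top2a, Nusap1, Prc1, Spc25 and Cdca3) and fewer than 4 of the Notch-stage set (Il2ra, Dtx1, Hes1, Erg, Mpzl2 and Notch3), with no UMI of Nkg7, C1qa, C1qb or C1qc. In all, 602 of 57354 deposited cells met this rule, from 29032 cells that passed the 3 filters. Control 1 gave 107 of them, control 2 gave 141, cKO 1 gave 127 and cKO 2 gave 227. The genotype of both controls was Tox4;F/F, that is, floxed Tox4 alleles without Cre, and the genotype of both cKO libraries was Tox4;F/F;Lck+, the same floxed alleles plus the Cre transgene. All groups therefore carried the loxP sites around exons 4 to 6 of Tox4 and were on a C57BL/6 background, and the methods give littermates aged 6 to 8 weeks. The Cre was driven by the proximal Lck promoter, which acts from the DN3 stage of T cell development on, which precedes the DP stage. A group with Cre and without floxed alleles was not analysed here. The study describes 2 pairs of mice, and p-values measure the spread between these 4 libraries alone.

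A DP blast is a thymocyte that has just passed β-selection, the checkpoint at which a working T cell receptor β chain is required, and that divides several times before it rests and rearranges its α chain genes. In mitosis, cyclin B with its kinase Cdk1 drives entry. Cyclin B is then tagged for destruction by the anaphase-promoting complex, of which Cdc20 is the activator, and its loss lets the cell leave mitosis. Cenpa is the histone H3 variant that marks the centromere, Ccnb1 and Ccnb2 encode the B cyclins, and Dlgap5 encodes a protein that stabilises spindle microtubules. Top2a (the topoisomerase that untangles chromosomes), Nusap1 and Prc1 (spindle proteins), Spc25 (a kinetochore protein) and Cdca3 (a trigger of mitotic entry) make up the set that had to be low.

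The proximal promoters of the late-set genes are shown because the members were chosen by the transcripts that start there. Each stretch runs from 120 bases before to 25 bases after the RefSeq start site, on the strand of the gene and from 5′ to 3′ (build GRCm38.p6). Capitals mark CCAAT, on either strand (ATTGG is its reverse complement), and TTTGAA, the core of the cell cycle homology element that lies near the start of many genes of mitosis. The positions are chr4:118437319-118437463 for Cdc20 (minus strand), chr5:30666766-30666910 for Cenpa (plus strand), chr13:100786462-100786606 for Ccnb1 (minus strand) and chr9:70421530-70421674 for Ccnb2 (minus strand). Dlgap5 had no entry.
Cdc20: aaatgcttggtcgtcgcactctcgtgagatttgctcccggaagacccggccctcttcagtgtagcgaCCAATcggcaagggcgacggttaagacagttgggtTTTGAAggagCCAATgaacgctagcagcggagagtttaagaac
Cenpa: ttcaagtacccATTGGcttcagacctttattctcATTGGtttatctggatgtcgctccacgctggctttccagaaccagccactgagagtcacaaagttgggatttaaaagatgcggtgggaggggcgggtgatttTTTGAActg
Ccnb1: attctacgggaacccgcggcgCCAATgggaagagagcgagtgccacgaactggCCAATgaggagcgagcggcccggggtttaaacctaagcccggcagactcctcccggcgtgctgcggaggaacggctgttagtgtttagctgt
Ccnb2: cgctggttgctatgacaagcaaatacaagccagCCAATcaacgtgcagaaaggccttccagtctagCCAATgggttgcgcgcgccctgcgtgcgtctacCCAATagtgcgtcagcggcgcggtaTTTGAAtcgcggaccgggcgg

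All 4 windows held at least 2 copies of CCAAT, and Ccnb2 held 3. They began at -87, -54 and -21 in Ccnb2, at -99 and -67 in Ccnb1, at -53 and -8 in Cdc20, and at -109 and -86 in Cenpa. TTTGAA began at -18 in Cdc20, at 17 in Cenpa and at 5 in Ccnb2, and Ccnb1 had none of these letters in the window. Among 27025 mouse promoters of the same window, 24.3% held CCAAT, 5.68% held 2 or more copies, 8.37% held TTTGAA and 1.98% held both. Of the genes on the 5 lists of mitosis genes used below, 54 of 63 had a promoter entry, and 59.3% of these held CCAAT, 40.7% TTTGAA and 35.2% both. Of the DNA replication genes, 19 of 23 had one, of which 57.9% held CCAAT but 10.5% TTTGAA. At least 2 copies of CCAAT lay in 29.6% of the mitosis promoters and in 47.4% of the replication promoters. The motifs do not overlap each other in the 4 windows, and a match describes the letters alone.

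The members held 874758, 1149024, 1092030 and 1817380 UMIs in control 1, control 2, cKO 1 and cKO 2, with a median of 6135, 6269, 5928 and 6503 per cell. Because the rule counts raw UMIs, deep cells enter more easily. The median mitochondrial share of a member was 5.45% and 5.75% in the controls and 4.75% and 5.09% in the cKO libraries. No barcode of a member was shared between libraries, against 350 shared barcodes over all pairs of libraries and all deposited cells. Free RNA and doublets (droplets with 2 cells) can both put foreign transcripts into a droplet, and the doublet caller could not be used since it marked 1 cell in each library. In 88 B cells, which should express neither coreceptor, 19.3% had a Cd4 UMI, 63.6% a Cd8a or Cd8b1 UMI and 37.5% at least 2 coreceptor UMIs, at median depths of 7411, 5854.5, 7545 and 4346 UMIs. A bare UMI of a coreceptor is thus near background. The summed coreceptor level was 331, 287, 294 and 584 CPM (UMIs of the gene per 1000000 UMIs of a library's cells of that kind) in B cells and 2893, 2636, 2032 and 1809 CPM in the members, which unlike the B cells were chosen by these genes.

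A few members carried the transcripts of other cells. One cell of control 1 held 1087 of the library's 1177 UMIs of MHC class II genes and 1 cell of control 2 held 1787 of 1856, and these cells had 21253 and 26281 UMIs in all with the smallest allowed late set of 4. The C1q genes were at 0 by the rule, and Ms4a1 (B cells), Alas2 (red cell precursors) and Foxp3 (regulatory T cells) were at 0 in the members of all 4 libraries. The summed level of the 10 macrophage and antigen presentation markers was 872 and 1073 CPM in the controls and 116 and 108 CPM in the cKO libraries. The 7 markers of mature single-positive T cells summed to 132 and 118 CPM in the controls and to 130 and 101 CPM in the cKO libraries. The genotype tests of genes were therefore run for all members and again without 26 marked members (8, 8, 5 and 5 per library) that had 10 or more UMIs of the macrophage list, 10 or more of the red cell list or 5 or more of the mature T cell list, limits set after the data had been seen. Without the marked members the macrophage list summed to 99.1, 107, 114 and 101 CPM and the mature T cell list to 61.3, 75.6, 86.9 and 89.9 CPM.

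The rule itself fixes that late-set transcripts were present, so they describe the members and do not test the label. The late set gave 4 to 50 UMIs per member with a median of 9, and 481 members (79.9%) had UMIs of at least 3 of its 5 genes, 144 of all 5 and 10 (1.66%) of a single one. In 9 of the 88 B cells (10.2%) the late set also reached 4 UMIs. The early set was at 0 in 89 members (14.8%). As for the label DP, 403 members had UMIs of Cd4 and of a Cd8 gene, 193 had Cd8 UMIs alone and 6 had Cd4 UMIs alone. These are genes of the rule with a background in B cells, so the counts do not show that each cell is DP. The share with both was 79.4% and 66.0% in the controls and 67.7% and 61.2% in the cKO libraries. Just inside the thresholds were 84 members with a late set of exactly 4 and 59 with an early set of exactly 5. Just outside were 195 cells with a late set of 3 and 46 with an early set of 6.

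To place the members in the cycle, their levels were set beside 3 other DP gates that shared the filters and the coreceptor, Notch-stage, Nkg7 and C1q conditions. Cells in G2 and early mitosis (3030) had an early set of at least 6. Cells in S phase (553) had at least 6 UMIs of Pcna, Mcm3, Mcm5, Mcm6, Hells, Ung, Dut and Tyms with low mitosis sets. Resting cells (5057) had UMIs of Cd4 and of a Cd8 gene, none of either mitosis set and at most 1 of the replication set. Since the gates are defined by cycle genes, all levels across them are a description and carry no test. Values are the mean CPM ± SD of the 4 libraries.

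Cenpa and Ccnb2 were higher in the members than in G2 and early mitosis, while the other 3 genes of the late set and most of the mitotic machinery were lower. Cenpa stood at 576 ± 79.2 CPM in the members against 432 ± 43.3 in G2 and early mitosis, and Ccnb2 at 428 ± 55.5 against 308 ± 53.9. Both were higher in the members of every library. Ccnb1 went the other way, with 114 ± 16.2 CPM against 250 ± 24.0, as did Cdc20 with 230 ± 48.4 against 267 ± 46.2 and Dlgap5 with 91.7 ± 4.46 against 117.5 ± 4.37, each lower in all 4 libraries. All of these are genes of the rule.

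Outside the rule, Cdk1, the kinase partner of cyclin B, was at 52.8 ± 8.61 CPM in the members, close to the 42.5 ± 10.1 of S phase cells and below the 361 ± 44.1 of G2 and early mitosis. Ccna2, the cyclin of S phase and G2, showed the same order with 60.7 ± 5.68 CPM against 19.8 ± 7.47 in S phase and 345 ± 32.2 in G2 and early mitosis. Plk1 (polo kinase) was at 17.6 ± 4.33 CPM against 117 ± 9.55, and Ube2c, the ubiquitin-conjugating enzyme that works with the anaphase-promoting complex, at 169 ± 39.5 against 1094 ± 108. Birc5 (survivin, of the chromosomal passenger complex) kept more of its level, with 289 ± 18.6 CPM against 675 ± 44.8, and so did the kinesin gene Cenpe with 148 ± 24.7 against 273 ± 15.4. All of these levels in the members were above those of resting cells, where Birc5 was at 37.0 ± 10.3 CPM and Cenpe at 14.8 ± 5.36. By list, 12 of 12 genes of the centromere and passenger proteins and 18 of 19 of the spindle motors and microtubule proteins were lower in the members than in G2 and early mitosis in all 4 libraries, and all 12 and all 19 were higher than in S phase. Among all 8676 genes at 10 CPM or more, 1908 were lower than in G2 and early mitosis in all 4 libraries and 1661 higher than in S phase.

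Among genes at 50 CPM or more in either gate with the same direction in all 4 libraries, the 10 outside the rule with the highest ratio to G2 and early mitosis were Hist1h2bc, Ifi27l2a, Ddit4, S100a11, Mxd4, AI480526, Ltb, Vim, Txnip and Snhg20. Hist1h2bc, a histone H2B gene, stood at 153 ± 44.2 CPM against 39.6 ± 7.29, and it was also above the S phase cells (53.7 ± 21.8) and the resting cells (20.3 ± 4.40). Mxd4, which encodes a partner of Max that opposes Myc, was at 192 ± 5.72 CPM against 74.8 ± 8.23, with 463 ± 44.8 in resting cells. Txnip, an inhibitor of glucose uptake, followed the same order at 132 ± 17.5, 54.4 ± 11.5 and 267 ± 47.8 CPM. Among the 10 lowest were Esco2 (the cohesin acetyltransferase of S phase), Aurkb (the passenger kinase), Mxd3, Ccnf, Pbk, H2afx and the histone genes Hist1h1b, Hist1h2ap and Hist1h2ae. Aurkb was at 12.7 ± 1.60 CPM against 164 ± 12, and Esco2 at 7.83 ± 1.57 against 164 ± 18.5. Many replication histone transcripts lack a poly(A) tail and several are near-identical copies, so a 3′ assay primed on poly(A) counts them incompletely. Of the genes named here, Ifi27l2a, S100a11 and Vim were partly carried by the marked members in the controls.

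The label also has the cells leaving the cycle, and on this the genes of DNA replication were mixed. Of the 23 genes of the list, 16 were lower in the members than in G2 and early mitosis in all 4 libraries and 2 higher, against 1908 and 2209 of all 8676 genes. Set beside S phase, 9 of 23 were lower in all 4 libraries and 0 higher, against 1712 and 1661 of all 8676 genes. The S phase gate required UMIs of 8 replication genes, Mcm3 and Hells among them. Of these 8, 5 were lower in the members in all 4 libraries, so the comparison with S phase is set in part by the gate. Rrm2, which encodes a subunit of the enzyme that makes deoxynucleotides, was at 165 ± 15.6 CPM in the members, 637 ± 106 in G2 and early mitosis and 184 ± 31.9 in S phase, and Pclaf, a partner of PCNA, at 386 ± 40.2, 1351 ± 71.2 and 357 ± 99.9. Mcm3, a subunit of the replicative helicase, was lowest in the members of every library by a small margin, at 235 ± 18.4, 248 ± 9.09 and 289 ± 45.7 CPM. As a gene of the S phase gate, its level in S phase is set in part by that gate. Hells, a chromatin remodeller, overlapped across the 3 gates at 180 ± 22.9, 176 ± 14.9 and 180 ± 47.0 CPM, and Cdc6, the licensing factor, stood at 67.1 ± 5.36, 60.6 ± 1.86 and 57.0 ± 17.0. The resting gate admitted few UMIs of 8 replication genes, so replication levels against resting cells are set by the gate and are not read.

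Several genes of the resting DP stage lay between G2 and early mitosis and resting cells. Rag1, of the recombinase that rearranges the receptor genes, was at 740 ± 106 CPM in the members, 368 ± 38.1 in G2 and early mitosis and 1737 ± 136 in resting cells. Cdkn1b (the cycle inhibitor p27) took the values 154 ± 21.5, 107 ± 12.7 and 257 ± 14.4 CPM, and Btg2, an antiproliferative gene, 363 ± 63.6, 224 ± 24.6 and 633 ± 82.2. Of 13 genes of the quiescence list at 10 CPM or more, 7 were above and 3 below G2 and early mitosis in all 4 libraries, and 11 were below resting cells. Of the 23 genes of the DP program, 12 were above and 5 below G2 and early mitosis, and 20 were below resting cells. Among all 8676 genes, 2209 were above and 1908 below G2 and early mitosis, and 4206 were below resting cells. In all 4 libraries, 12 of 12 mitotic kinase and checkpoint genes and 9 of 9 cytokinesis genes were lower than in G2 and early mitosis. Their median log2 ratios were -1.56 and -1.57. The early-mitosis set had to be low in the members and high in G2 and early mitosis. Lower levels of other mitosis genes can thus follow from the gates. Because the gates were set by cycle genes, neither an exit nor late mitosis was shown by these levels. The members are therefore named by their rule, as late-set DP cells of the late-set gate.

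**Figure D1:**
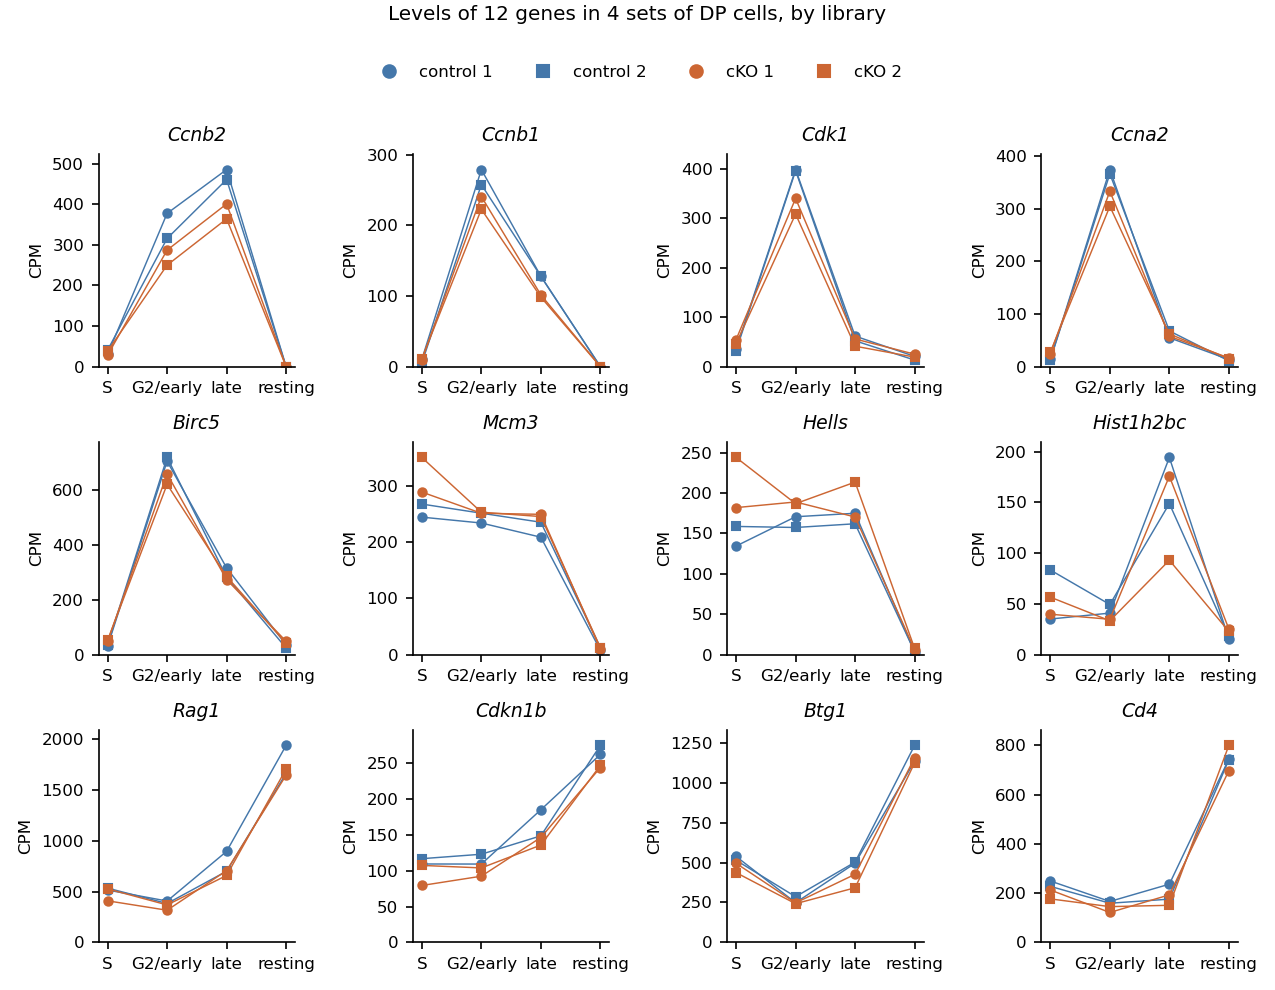
Level (CPM, vertical axes from 0) of 12 genes in S phase, G2 and early mitosis, late-set and resting DP cells, with 1 line per library. Cdk1 and Ccna2 peaked in G2 and early mitosis, Ccnb2 in late-set cells, Mcm3 went from 289 over 248 to 235 CPM through the 3 cycling gates, Hells overlapped across them and Rag1 and Cdkn1b rose from G2 and early mitosis to resting cells. Mcm3 and Hells are genes of the S phase gate.

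The members were not uniform along this order. When they were split by their early set, into 0 to 1, 2 to 3 and 4 to 5 UMIs, the cells with the fewest early-set UMIs had the most Rag1, Btg1 and Hist1h2bc. Rag1 was at 1068 ± 186, 690 ± 148 and 511 ± 34.4 CPM in the 3 bins, Btg1 at 671 ± 138, 385 ± 93.7 and 298 ± 52.2, and Hist1h2bc at 212 ± 83.1, 154 ± 41.2 and 101 ± 26.0. The replication genes ran the other way. Mcm3 stood at 178 ± 29.3, 238 ± 7.91 and 286 ± 28.8 CPM, Rrm2 at 100 ± 30.5, 177 ± 21.5 and 210 ± 28.1, and Pclaf at 242 ± 78.3, 437 ± 66.4 and 457 ± 33.7. Hist1h2bc is low in resting cells, so the bins do not follow the order to resting cells in every gene. Cenpa was at 642 ± 48.2, 572 ± 98.3 and 523 ± 88.3 CPM, and Mki67, the gene of the Ki67 antigen, was level at 297 ± 34.2, 282 ± 51.1 and 288 ± 72.5. Depth moved with the bins, as the median UMIs of control 1 went from 5050.5 over 6821 to 7663.5 and those of cKO 2 from 5163 over 7114 to 9379, and its part in these differences was not tested. Members with Cd8 UMIs alone had less Rag1 than those with Cd4 and Cd8, at 485 ± 117 against 887 ± 151 CPM, less Cdkn1b at 90.8 ± 13.9 against 188 ± 28.0, and more Hells at 216 ± 36.1 against 161 ± 10.6. The order of Cdkn1b held in every library.

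**Figure D2:**
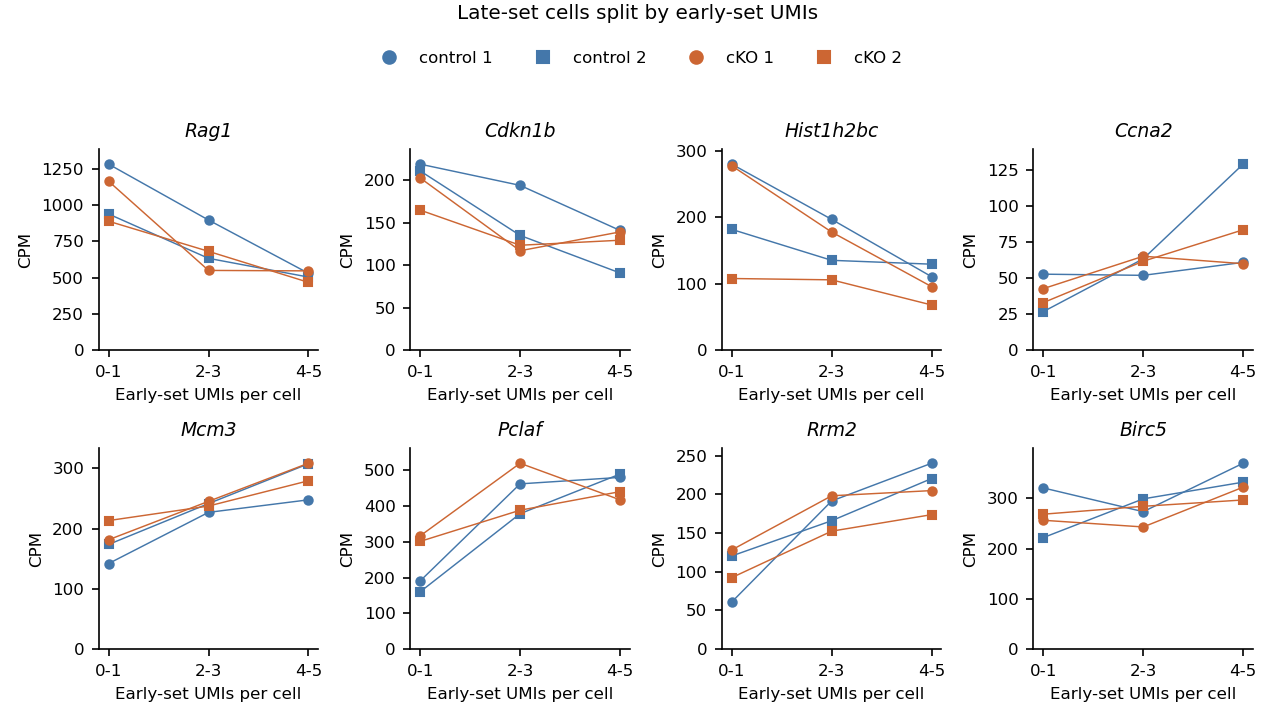
Level (CPM, vertical axes from 0) of 8 genes in late-set DP cells with 0 to 1, 2 to 3 and 4 to 5 UMIs of the early-mitosis set, with 1 line per library. In every library Rag1 and Hist1h2bc were highest and Mcm3 and Rrm2 lowest in the cells with the fewest early-set UMIs.

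The first question put to the genotypes was whether Tox4 loss changed how many cells fell into the late-set gate. The members made up 1.98% (95% exact binomial interval 1.62 to 2.38) and 1.77% (1.49 to 2.08) of the cells passing the filters in the controls, and 2.07% (1.73 to 2.46) and 2.39% (2.09 to 2.72) in the cKO libraries. The group means were 1.87% ± 0.149 and 2.23% ± 0.229 (SD, n = 2), and the groups did not overlap. The two-sided exact permutation test over the 4 libraries gave p = 0.33, the smallest it allows with 2 against 2. Intervals cover counting error only, and those of control 1 and cKO 1 overlapped for most of their length.

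Set against the cells of G2 and early mitosis, the direction was the opposite. There were 0.214 and 0.222 members per cell of G2 and early mitosis in the controls and 0.167 and 0.200 in the cKO libraries, with means of 0.218 ± 0.00545 and 0.184 ± 0.0231 (SD, n = 2, two-sided exact permutation p = 0.33). As a share of all cycling DP cells (S phase, G2 and early mitosis, and late-set cells), the members took 15.1% and 15.8% in the controls and 12.4% and 14.6% in the cKO libraries (exact permutation p = 0.33). Cells of G2 and early mitosis made up 9.24% and 7.96% of the 5414 and 7985 passing cells in the controls and 12.4% and 12% of the 6142 and 9491 in the cKO libraries. Resting cells of this gate made up 17.2% and 24.2% against 10.9% and 16.0%. Without marked cells in any gate the differences (cKO minus control) were 0.48 percentage points of passing cells, -0.029 members per cell of G2 and early mitosis and -1.98 points of cycling cells. The median UMI total of a member did not separate the groups, with 6202 ± 94.8 in the controls and 6216 ± 407 in the cKO libraries (SD, n = 2, exact permutation p = 1.0). With a mitochondrial limit of 5% the members per cell of G2 and early mitosis no longer differed in direction, at 0.160 in both groups. When every cell was thinned to 2000 UMIs before the gate, the groups overlapped in all 3 shares.

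**Figure D3:**
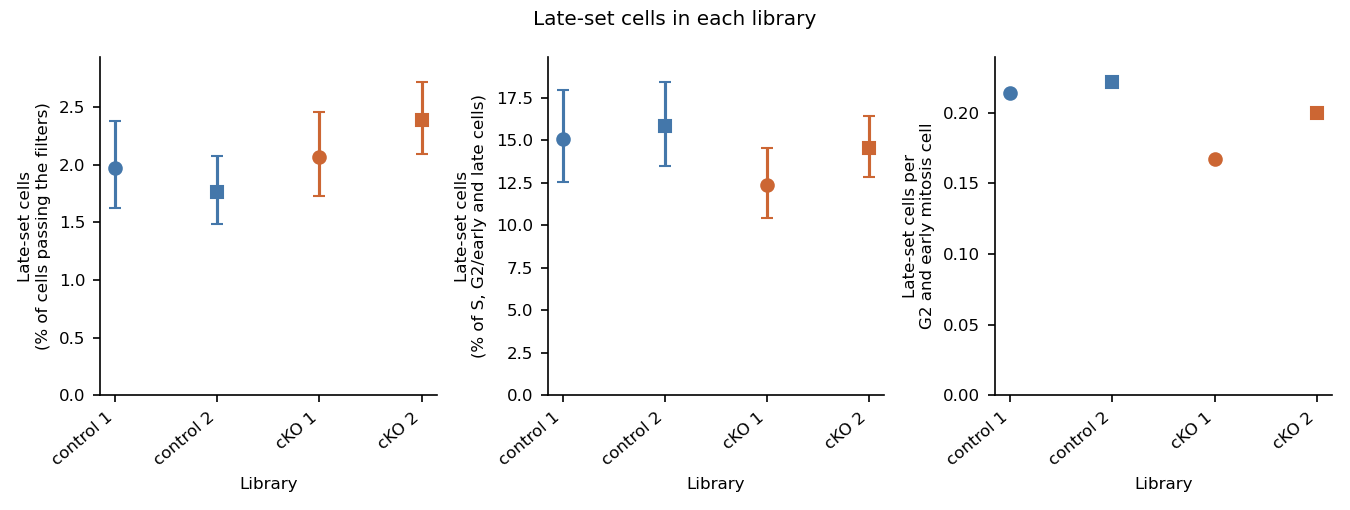
Late-set DP cells in each library, as a share of the cells passing the filters, as a share of cycling DP cells (bars are 95% exact binomial intervals) and per cell of G2 and early mitosis, on axes from 0. The cKO libraries, at 2.07% and 2.39%, lay above the controls in the first panel and below them in the other panels.

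The second question was which transcripts differed between cKO and control in the late-set gate. Tox4 itself was at 62.9 and 49.6 CPM in the controls and 57.7 and 59.4 CPM in the cKO libraries, a log2 fold change of 0.11 (SE 0.19, adjusted p = 0.875). A 3′ assay reads the end of the transcript and not the deleted exons, so this value checks nothing about the deletion. UMIs were summed over the members of a library, and the 4 sums were compared by the quasi-likelihood F test of edgeR with p-values adjusted over all genes tested. Fold changes below are cKO over control. Of 7962 genes, 157 (1.97%, among them the rule genes Cd8a, Cd8b1 and Cdc20) passed an adjusted p of 0.05, of which 64 (0.804%) were higher and 93 (1.17%) lower in the cKO libraries, and 1103 had an unadjusted p under 0.05. Without the marked members 112 of 7723 genes passed (1.45%), 62 higher (0.803%) and 50 lower (0.647%). The 2 fits shared 87 called genes, all with the same sign and with these 3 rule genes among them. Of the 70 genes lost, 27 had 50% or more of a control library's UMIs in a single cell. No overlap between the groups was common, at 42.6% of all genes tested, so it is not read as a result. The median log2 fold change of all genes was 0.0036.

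The genes that fell furthest were those of the antigen-presenting cells named above. Cd74 (the class II invariant chain) was at 591 and 647 CPM in the controls and 19.2 and 27.5 CPM in the cKO libraries. H2-Ab1 (a class II β chain, chromosome 17, 34257689 to 34269419, plus strand of GRCm38, as are all gene positions below) was at 311 and 298 CPM against 21.1 and 16.0, and Cst3 (cystatin C) at 874 and 935 CPM against 175 and 167. A single cell held 95.2% and 96.5% of the control UMIs of H2-Ab1 and 78.4% and 80.4% of those of Cst3. Without the marked members the log2 fold changes were -0.35 (SE 0.30, adjusted p = 0.677) for Cd74, 0.74 (SE 0.40, adjusted p = 0.430) for H2-Ab1 and -0.09 (SE 0.12, adjusted p = 0.847) for Cst3. H2-Eb1, H2-Aa and S100a11 also passed in the first fit alone. Lgals3, Plbd1 and Ly6a passed with all members and were too low to be tested without the marked ones, and for Ly6a no single cell held more than 42.1% of a library's control UMIs. Cd74 and H2-Aa are on the list that marked the cells, so their drop in the second fit follows in part from the choice, while H2-Ab1, H2-Eb1 and Cst3 are not on it. The genes below passed in both fits unless it is said otherwise.

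**Figure D4:**
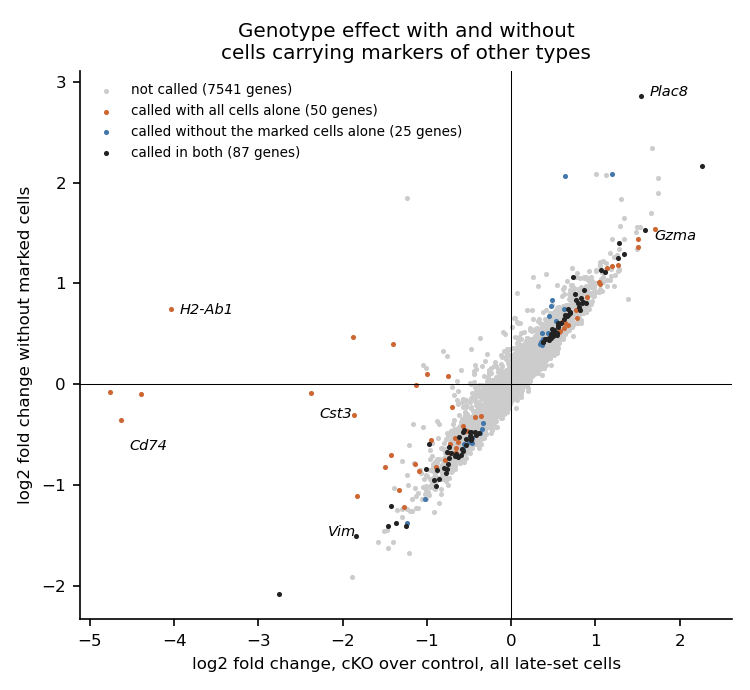
log2 fold change (cKO over control) of each gene in all late-set DP cells (horizontal) and without the 26 cells marked by transcripts of other types (vertical), with 1 point per gene tested in both fits. The class II genes and Cst3 left the diagonal and came to lie between -0.35 and 0.74 on the vertical axis, whereas Gzma went from 1.58 to 1.53, Vim from -1.43 to -1.21 and Plac8 from 1.54 to 2.86.

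Gzma rose most firmly. This gene of granzyme A, a protease of killer cells (chromosome 13, 113093825 to 113100981, minus strand), stood at 130 and 190 CPM in the controls and 431 and 516 CPM in the cKO libraries. No single cell held more than 19.5% of a library's Gzma UMIs. The log2 fold change was 1.58 (SE 0.14, adjusted p = 1.2e-08) with all members and 1.53 (SE 0.15, adjusted p = 8.9e-07) without the marked ones, and it passed in all 24 alternative settings. Plac8, a gene active in several blood cell types (chromosome 5, 100553725 to 100572245, minus strand), was at 59.5 and 42.6 CPM in the controls and 134 and 150 CPM in the cKO libraries. Its log2 fold change of 1.54 (SE 0.17, adjusted p = 1.0e-06) became 2.86 (SE 0.24, adjusted p = 1.2e-07) without the marked members, since the controls then held 10.4 and 26.2 CPM. Notch1, the receptor that drives early thymocytes (chromosome 2, 26457903 to 26516663, minus strand), was at 99.5 and 82.7 CPM against 134 and 164, a log2 fold change of 0.77 (SE 0.15, adjusted p = 0.00386). Smo, the Hedgehog signal transducer, rose by 0.88 on the log2 scale (SE 0.17, adjusted p = 0.00344). Notch1 was not called without cKO 2 (adjusted p = 0.231), and Smo was not called when the marked members and control 1 were both left out (adjusted p = 0.0954). Markers of γδ T cells moved with these genes in part. Of 3 genes of that list tested, Tcrg-C1 and Tcrg-C2 passed without the marked members at log2 fold changes of 2.09 and 2.07, and neither passed with them. Without the marked members 0.803% of all genes tested were called higher. With all members the summed γδ list was level at 264, 269, 256 and 280 CPM. Their part in the rise of Gzma was not tested.

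Some genes of chaperones and of ribosome production rose, a grouping made after their values were seen. Hspd1 (mitochondrial chaperonin HSP60) was at 277 and 328 CPM in the controls and 473 and 478 CPM in the cKO libraries, a log2 fold change of 0.68 (SE 0.11, adjusted p = 0.00052). Its partner Hspe1 (HSP10) was at 359 and 357 CPM against 556 and 560, a log2 fold change of 0.67 (SE 0.10, adjusted p = 0.00022). Both genes were named under a rule that required no overlap between the groups, so the separation of their libraries is not read. Of 13 tested genes of the growth list, 3 passed, all of them higher, where 0.804% of all genes tested were called higher, and 10 of 13 had a positive fold change with a median of 0.41 against 0.0036 for all genes. They were Npm1 (nucleophosmin, 1447 and 1568 CPM against 1983 and 2055), Ncl (nucleolin, 863 and 804 CPM against 1049 and 1245) and Myc (42.3 and 67.0 CPM against 77.8 and 105). Myc lost its call without the marked members (log2 fold change 0.73, SE 0.22, adjusted p = 0.098). Gnl3, another nucleolar gene, rose by 0.80 on the log2 scale (SE 0.14, adjusted p = 0.00132). With all members, Npm1 was not called without control 1 (adjusted p = 0.0938) or cKO 2 (0.224), Ncl not without cKO 2 (0.457) and Myc not without control 1 (0.300) or cKO 2 (0.658). Gnl3 was not called when the marked members and control 1 were both left out (adjusted p = 0.0688).

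Ribosomal protein genes, a group picked after the values had been seen, were higher in 79 of 80 cases. Their median log2 fold change was 0.23, against 0.0036 for all genes. Of the 80, 7 were called higher with all members and 12 without the marked ones, where 0.804% and 0.803% of all genes tested were called higher. The 80 genes summed to 224600 and 238600 CPM in the controls and 257800 and 274800 CPM in the cKO libraries. Processed copies of many of these genes, and of Npm1 and Set, lie elsewhere in the genome, so their counts are less certain. Set and Nap1l1, both histone chaperones, rose by 0.56 (SE 0.11, adjusted p = 0.00219) and 0.55 (SE 0.10, adjusted p = 0.00278). The heat shock protein gene Hsp90aa1 rose by 0.44 (SE 0.11, adjusted p = 0.0223), while 9 of the 10 tested genes of its list of early response and heat shock genes had a negative fold change. The gene mt-Nd4l, a subunit of respiratory complex I encoded in the mitochondrion, rose by 0.83 (SE 0.15, adjusted p = 0.00211), in libraries with a lower median mitochondrial share of UMIs. Without cKO 2, Set (adjusted p = 0.0666), Nap1l1 (0.204), Hsp90aa1 (0.352) and mt-Nd4l (0.221) were not called, and neither was Hsp90aa1 without control 1 (0.252).

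No gene of the mitosis lists outside the rule passed the edgeR test between genotypes. Of 58 different genes tested, 11 had an unadjusted p under 0.05, and DESeq2 called 0 of the 14 for which it gave an adjusted p. The lists held 10 tested genes of the mitotic kinases and checkpoint (median log2 fold change -0.23), 12 centromere and passenger proteins (-0.14), 11 genes of the anaphase-promoting complex and its partners (-0.16), 19 spindle motors and microtubule proteins (-0.14) and 8 cytokinesis genes (-0.32). Most leaned to lower values in the cKO libraries, namely 9 of 10, 8 of 12, 9 of 11, 13 of 19 and 7 of 8 genes. The largest of the named ones was Racgap1, part of the complex that places the cleavage furrow, at 92.6 and 97.5 CPM against 65.9 and 67.7 (log2 fold change -0.47, SE 0.16, adjusted p = 0.144). Ube2s, which extends ubiquitin chains on cyclin B, was at 800 and 788 CPM against 664 and 587 (adjusted p = 0.103), and Bub3, of the spindle checkpoint, at 134 and 123 CPM against 99.8 and 98.5 (adjusted p = 0.285). Cdk1 (adjusted p = 0.717) and Ccna2 (adjusted p = 0.994) differed by less than the libraries of a group. The phosphatases of mitotic exit, among them the protein phosphatase 1 subunits that Tox4 binds with PNUTS, gave 0 of 17 calls with edgeR and 0 of 7 with DESeq2 (1 at an unadjusted p under 0.05) and a median of -0.06, and Ppp1ca was at 522, 411, 456 and 435 CPM. Nuclear re-assembly gave 0 of 11 calls with edgeR and 0 of 6 with DESeq2 (3 at an unadjusted p under 0.05, median 0.17) with the GTPase gene Ran at 1080 and 1134 CPM against 1259 and 1333 (adjusted p = 0.200).

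Replication genes leaned upward, also without a call by edgeR (0 of 23) or DESeq2 (0 of 15). In the DNA replication list 5 of 23 genes had an unadjusted p under 0.05, 20 of 23 genes had a positive fold change with a median of 0.19, and its 2 most abundant members, Dut at 732, 690, 833 and 756 CPM and Pclaf at 391, 335, 433 and 385 CPM, had adjusted p-values of 0.404 and 0.423. The cKO libraries lay above the controls for Dut and overlapped them for Pclaf. Of 22 proliferation genes of a published list that the study scored in these cells, 21 were tested, with 0 calls by edgeR (3 at an unadjusted p under 0.05) and 0 of 12 by DESeq2, but Ccnb1 and Top2a among them are genes of the rule. Of the replication histone list, 1 of 10 tested genes passed, where 1.97% of all genes tested were called. It was the linker histone gene Hist1h1c, at 132 and 131 CPM against 81.5 and 87.5 (log2 fold change -0.59, SE 0.15, adjusted p = 0.0283). The call was lost without control 2 (adjusted p = 0.0912), cKO 1 (0.136) or cKO 2 (0.115).

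Among the regulators of G1, 2 of 11 tested genes passed, in opposite directions, where 1.97% of all genes tested were called. Rbl1 (p107 of the retinoblastoma family, chromosome 2, 157145893 to 157204534, minus strand) rose from 16.0 and 19.2 CPM in the controls to 41.2 and 46.2 CPM in the cKO libraries, a log2 fold change of 1.34 (SE 0.28, adjusted p = 0.00534). It rested on 14, 22, 45 and 84 UMIs and was not called without cKO 2 (adjusted p = 0.0869). Ccnd3 (cyclin D3, the D cyclin that DP blasts need) fell from 1030 and 948 CPM to 761 and 691 CPM, a log2 fold change of -0.41 (SE 0.10, adjusted p = 0.0202), and it was not called without control 1 (0.0817), cKO 1 (0.0665) or cKO 2 (0.420). Every tested gene of the quiescence list had a negative fold change (13 of 13), with a median of -0.39 against 0.0036 for all genes. Of these, 2 passed with edgeR, where 1.17% of all genes tested were called lower. DESeq2 called 0 of the 4 for which it gave an adjusted p, and 8 had an unadjusted p under 0.05 with edgeR. Klf2, a factor of resting T cells, was at 59.5 and 98.3 CPM in the controls and 36.6 and 23.1 CPM in the cKO libraries, so that it fell by 1.46 on the log2 scale (SE 0.24, adjusted p = 0.00054). It was at 22.2 and 66.9 CPM against 15.3 and 18.1 without the marked members (adjusted p = 0.0482), a call that was lost when control 2 was left out as well, where the log2 fold change went from -1.41 to -0.31 (adjusted p = 0.864). Tsc22d3 (GILZ) was at 75.5 and 78.3 CPM against 54.0 and 37.4 (adjusted p = 0.0358) and was called in 11 of 22 alternative settings. It lost the call without control 2 (adjusted p = 0.118) and without cKO 2 (adjusted p = 0.658), among others. Without the marked members Cdkn2c (p18) passed as well, at a log2 fold change of -1.38. Klf2 also marks mature thymocytes, and the mature T cell list of those libraries summed to 132 and 118 CPM against 130 and 101.

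In the DP program 1 of 23 tested genes passed, where 1.97% of all genes tested were called. Trac, the constant region of the receptor α chain, was at 231 and 296 CPM in the controls and 173 and 146 CPM in the cKO libraries. This is a log2 fold change of -0.72 (SE 0.13, adjusted p = 0.0021), not called without control 2 (0.0635) or cKO 2 (0.0686). Without the marked members Endou joined it. Rag1 was at 895 and 700 CPM against 706 and 658 (adjusted p = 0.469). The coreceptor genes took part in the rule and are given as a description, Cd8a with 1135, 971, 695 and 677 CPM, Cd8b1 with 1522, 1489, 1144 and 982 CPM and Cd4 with 237, 176, 193 and 151 CPM in control 1, control 2, cKO 1 and cKO 2. The late set stood at 1654 and 1567 CPM in the controls and 1286 and 1251 CPM in the cKO libraries when summed. Its gene Cdc20 was at 284 and 258 CPM against 193 and 185, and Cenpa at 661 and 625 CPM against 501 and 516. The p53 target list gave 0 of 9 calls with edgeR and 0 of 3 with DESeq2 (3 at an unadjusted p under 0.05). In the interferon list 4 of 9 tested genes passed, where 1.97% of all genes tested were called. Of these, Bst2 (tetherin) rose from 84.6 and 110 CPM to 166 and 156 CPM and Ifi27l2a fell from 296 and 210 CPM to 75.1 and 62.7 CPM. Without the marked members 5 genes of the list were tested, and Bst2 (higher) and Ifi27l2a (lower) passed. Ly6a and Irf7 were then too low to be tested. In control 1 a single cell held 63.3% of the Ifi27l2a UMIs, and without the marked members the log2 fold change of -1.51 became -0.87 and lost its call when control 2 was left out (adjusted p = 0.0819). Bst2 was not called without control 1 (adjusted p = 0.0620), Ly6a not without control 1 (0.174) and Irf7 not without control 2 (0.293) or cKO 2 (0.633). Jund, of the AP-1 family, fell by 0.48 on the log2 scale (SE 0.11, adjusted p = 0.00942), but was not called without cKO 1 (0.0853) or cKO 2 (0.159).

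Vim, Tuba1a, Actg1 and the thymosins, genes of the cytoskeleton, were among those that fell, a grouping made after their values were seen. Other genes of the cytoskeleton did not fall. Stmn1, which destabilises microtubules, was at 2308 and 2064 CPM against 2274 and 2013 (adjusted p = 0.993). Tagln2, which binds actin, was at 104 and 101 CPM against 142 and 138 (adjusted p = 0.0727) and passed as higher without the marked members (log2 fold change 0.83, SE 0.15, adjusted p = 0.00404). Vim (vimentin, chromosome 2, 13573927 to 13582826, plus strand) was at 276 and 351 CPM in the controls and 139 and 95.7 CPM in the cKO libraries, a log2 fold change of -1.43 (SE 0.15, adjusted p = 3.1e-07). Without the marked members it was at 176 and 212 CPM against 84.1 and 80.3, a log2 fold change of -1.21 (SE 0.14, adjusted p = 3.8e-05). The actin-binding thymosins fell too, Tmsb10 from 1638 and 1570 CPM to 945 and 630 CPM and Tmsb4x from 6087 and 5840 CPM to 3275 and 2667 CPM, with log2 fold changes of -1.01 and -0.98 that became -0.84 (SE 0.11, adjusted p = 0.00014) and -0.59 (SE 0.10, adjusted p = 0.00285). Tmsb4x was not called when the marked members and cKO 2 were both left out (adjusted p = 0.0547). Tuba1a (an α tubulin) was at 225 and 195 CPM against 106 and 117, and Actg1 (γ actin) at 1675 and 1800 CPM against 1058 and 980. These genes were named under a rule that required no overlap between the groups, which 42.6% of all genes tested met. Their separation is therefore not read. No cell held more than 6.03% of the Tuba1a UMIs of a library. Ptms (parathymosin) was at 921 and 741 CPM against 553 and 476, and Gtf2h4, a subunit of the transcription factor TFIIH, fell by 0.76 on the log2 scale (SE 0.14, adjusted p = 0.00169). Vim, Tmsb10, Actg1 and Gzma were the 4 genes of those named that passed in every alternative setting.

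**Figure D5:**
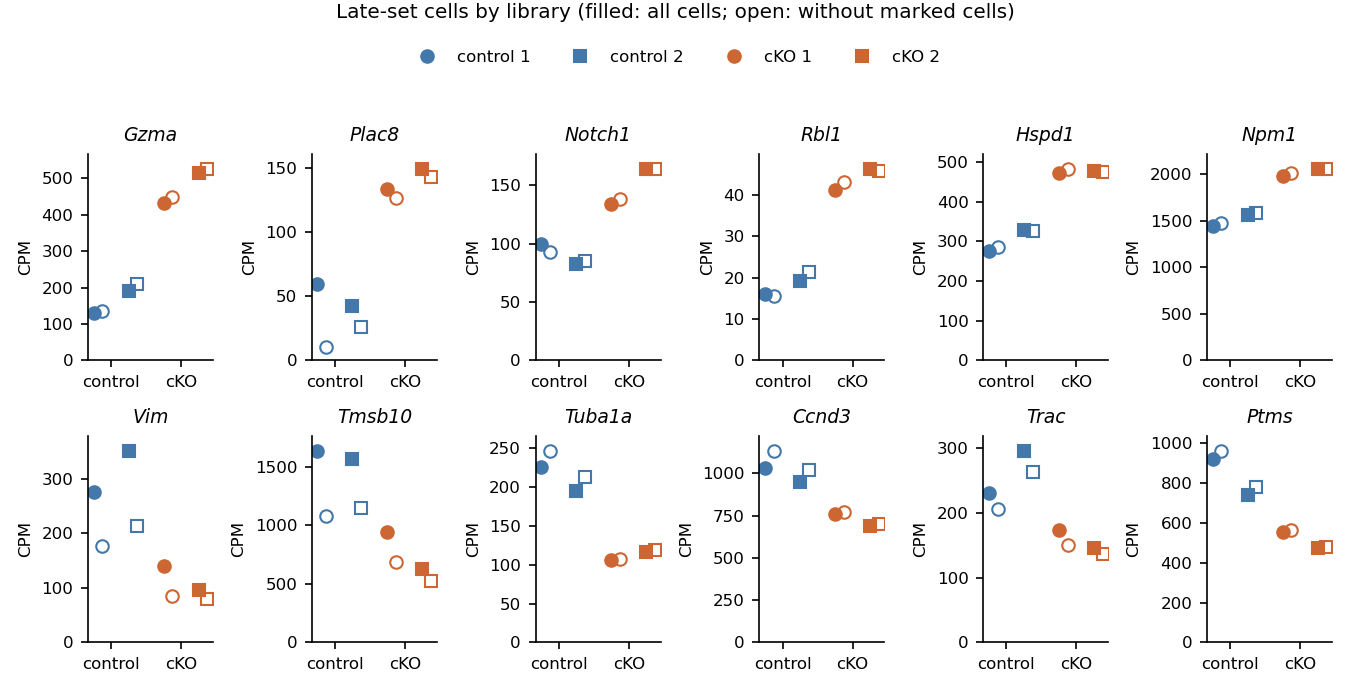
Level (CPM, vertical axes from 0) of 12 genes in the late-set DP cells of each library, with all members (filled) and without the 26 marked members (open). The cKO libraries lay above the controls in the upper row, as for Gzma at 431 and 516 CPM against 130 and 190, and below them in the lower row.

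Effects of the same contrast in the other gates, computed from the same 4 libraries, are given side by side. In G2 and early mitosis 7 of 11054 genes passed (0.0633%), in S phase 28 of 8144 (0.344%) and in resting cells 10 of 10300 (0.0971%). Gzma passed in all 4 gates, with log2 fold changes of 1.58 in the late-set gate, 0.88 in G2 and early mitosis, 1.25 in S phase and 1.68 in resting cells. Plac8 had 1.54, 1.01, 0.81 and 0.48 in the same order, Notch1 0.77, 0.32, 0.90 and 0.88, and Vim -1.43, -0.44, -0.97 and -0.31. Rbl1 had 1.34, -0.14, 0.31 and 0.11. Differences from S phase were not tested.

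The difference between gates was tested itself, as an interaction of gate and genotype with the library as a block. Between the late-set gate and G2 and early mitosis, 45 of 10804 genes passed (0.417%) with all cells and 12 of 10584 (0.113%) without marked cells in either gate. The latter were Plac8, Rbl1, Hspd1, Hspe1, Npm1, Hsp90aa1, Set and Tcrg-C2, whose effect was more positive in the late-set gate, and Ifi27l2a, Vim, Cd52 and Nrgn, whose effect was more negative, a list given whole after its values were seen. With all cells Hspe1 (adjusted p = 0.0626), Set (0.0842) and Tcrg-C2 (0.874) did not pass. The difference of Tcrg-C2 was 0.47 with all cells and 1.82 without the marked ones. Nrgn rested on 1 library, with 39.1 CPM in control 1 and 1.94, 2.87 and 1.70 CPM in control 2, cKO 1 and cKO 2 in the late-set gate without the marked members. Without the marked cells Rbl1 differed by 1.42 on the log2 scale (SE 0.28, adjusted p = 0.00128) and Hspd1 by 0.51 (SE 0.11, adjusted p = 0.0097), and both also passed with all cells. Plac8 differed by 1.61 (SE 0.26, adjusted p = 2.3e-06) without the marked cells but by 0.50 (SE 0.20, adjusted p = 0.535) with all cells. The difference of Vim was -0.72 (SE 0.17, adjusted p = 0.0195) without the marked cells and -0.98 with all cells. That of Gzma was 0.68 (SE 0.13, adjusted p = 0.00188) with all cells and 0.47 (SE 0.13, adjusted p = 0.0858) without the marked ones. Between the late-set gate and resting cells, 40 of 9879 genes passed (0.405%) with all cells and 10 of 9784 (0.102%) without marked cells, among them Vim (-1.13, SE 0.18, adjusted p = 0.00264), Tmsb4x (-0.54, SE 0.11, adjusted p = 0.0229) and Ada, adenosine deaminase (1.01, SE 0.22, adjusted p = 0.0419). Another was Cenpf, a kinetochore gene of the centromere list (-1.13, SE 0.22, adjusted p = 0.0193), whose effect was -0.15 in late-set cells and 0.92 in resting cells, where it was at 16.2 and 10.9 CPM against 24.3 and 24.2. The others were Hmgb2, a chromatin protein (-0.57, SE 0.12, adjusted p = 0.0229), Gm12840, Nrgn, Prss2, Slc7a11 and St8sia1. With all cells Hmgb2 (adjusted p = 0.0555), Slc7a11 (0.0908) and Gm12840 (0.1135) did not pass. Gm12840 rested on control 2, with 95.9 CPM in the late-set gate without the marked members, against 11.7 in control 1, 22.0 in cKO 1 and 14.7 in cKO 2. Rbl1 was not among the 10, with a difference of 1.24 (SE 0.34, adjusted p = 0.107) with all cells and 1.17 (SE 0.34, adjusted p = 0.232) without the marked ones.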

How the data were processed

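Single-cell RNA-seq libraries of thymocytes were made on the droplet system of 10x Genomics (3′ kit, version 3 chemistry). The authors ran Cell Ranger at default settings on the mouse genome (mm10) and deposited filtered matrices of raw UMI counts per gene and cell for each library, with no normalization and no pooling. Members and gene lists were chosen with earlier results of these data known.

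Counts were summed per library and gate and tested with edgeR 4.0.16 in R 4.3.3 (quasi-likelihood F test, TMM factors, filterByExpr, Benjamini-Hochberg adjustment, called at an adjusted p under 0.05). Genotype was the single term, and library was a block in the interaction with gate. The standard error of a log2 fold change was approximated as its size over the square root of F. Shares were compared by exact permutation tests over 4 libraries, with Clopper-Pearson intervals. Scrublet (scanpy 1.11.5) marked 0.0105% to 0.0185% of cells, so removal of the 5% highest scores per library was an alternative. The fits were tested on simulated data.

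Named genes were the rule genes, Tox4, Cdk1 and Ccna2, the 12 called genes per direction with the lowest p and no overlap between the groups, up to 4 called members of each list by lowest p (or its 2 most abundant), the 10 genes per direction with the largest ratio to G2 and early mitosis at 50 CPM or more and with the same sign in all 4 libraries, and up to 5 per direction in each interaction test. Some genes that this rule picks are not reported here. Ribosomal protein genes, genes named from the fit without marked cells, and Birc5, Cenpe, Plk1, Ube2c, Mcm3, Hells, Cdc6, Rag1, Cdkn1b, Btg1, Btg2, Rrm2, Mki67, Bub3 and Racgap1 in the descriptions of gates, bins and lists were chosen after values had been seen, as were Tcrg-C1, Tcrg-C2, Cdkn2c and Endou. Gene positions are from GENCODE and promoters from RefSeq. Alternatives were DESeq2 1.42.0, its size factors, no filter on low counts, stricter gates, thinned cells, equal cell numbers, a replicate block, and each library left out.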

Additional observations from a re-analysis of the deposited data

Results flagged for a closer look

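Groups of 2 libraries cannot be screened for a single aberrant library, so the results below were picked out because the genotype effect in the late-set gate differed by test from that in another gate. Each value is the log2 effect (cKO over control) in the late-set gate minus that in the other gate, over all cells.

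Against G2 and early mitosis, the effect of Rbl1 differed by 1.47, that of Hspd1 by 0.50 and that of Gzma by 0.68. Rbl1 and Hspd1 passed again without the marked cells and Gzma did not (adjusted p = 0.0858). The effects of Cd74, Cst3, H2-Ab1, H2-Eb1 and Lgals3 differed by -3.46, -2.00, -3.05, -3.22 and -3.71, and none of the 5 passed without the marked cells. Igkc, the κ light chain, differed by 4.95 and Hba-a1, an α globin, by 3.69. Igkc was at 7.33 CPM or less in the late-set gate and reached 563 CPM in control 1 in G2 and early mitosis. Hba-a1 was at 1.14, 0.870, 1.83 and 11.6 CPM in the late-set gate, where 1 cell held 81.0% of the UMIs of cKO 2, and at 0.492, 219, 2.01 and 122.5 CPM in G2 and early mitosis (control 1, control 2, cKO 1, cKO 2). Without the marked cells Igkc did not pass (adjusted p = 0.913) and Hba-a1 was not tested.

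Against resting cells, the effect of Ada differed by 1.04 and passed again without the marked cells (adjusted p = 0.0419). Those of Cd74, Cst3, H2-Aa, H2-Ab1 and H2-Eb1 differed by -4.50, -2.26, -5.10, -4.37 and -4.24, and none of the 5 passed without the marked cells. Prss2, a trypsinogen gene, differed by 8.37, but all 28 of its UMIs in the late-set gate came from 1 cell of cKO 2 (15.4 CPM), with none in the other 3 libraries.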

How the results depend on the processing

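Both the shares of cells and the number of called genes moved with the settings. The difference in the share of passing cells (0.359 percentage points) was 0.729 with a mitochondrial limit of 5%, 0.126 with a late set of at least 6 and 0.094 with thinned cells. The difference in members per cell of G2 and early mitosis (-0.0342) was 5e-05 with the mitochondrial limit, -0.067 without UMI extremes and -0.0793 with thinned cells, and that in the share of cycling cells (-1.98 points) was -0.10, -3.32 and -3.52. The difference in median UMIs (13.5) was 958 with the mitochondrial limit and 458 with the stricter late set. The 157 called genes became 52 with DESeq2, 268 without a filter on low counts, 61 with an early set under 4, 56 without UMI extremes (the highest and lowest 2.5% per library), 13 with thinned cells, and 75 (without cKO 2) to 210 with a library left out. Without the marked cells there were 112 calls, 64 with DESeq2, and 35 (without cKO 2) to 140 with a library left out. The share of calls that were higher in the cKO was 40.8%, but 55.4% without the marked cells, 28.9% with the mitochondrial limit, 24.6% with the stricter early set, 20.0% without cKO 2 and 7.69% with thinned cells. The replicate numbers were not shown to pair the libraries, since the deviations of same-numbered libraries from their group means correlated at r = 0.0684 across 7962 genes with 2 pairs. With the replicate block there were 302 calls, 55.0% of them higher, and 271 without the marked cells. Calls between the late-set gate and G2 and early mitosis (45) became 12 without the marked cells, 114 with the mitochondrial limit and 23 (without cKO 1) to 48 with a library left out. Those between the late-set gate and resting cells (40) became 10, 16 with the mitochondrial limit, 65 without the low filter, 101 without control 1, 8 without cKO 1 and 21 without cKO 2. The cause was not tested in any of these beyond the number of cells and genes each setting leaves.

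Of 45 named genes outside the rule that passed, 34 passed without the marked cells too, and none of the 34 changed sign in the alternatives that gave it a value (21 to 24 per gene), while 18 of them still passed without cKO 2 and 6 with thinned cells. The sign changed for H2-Ab1 (0.722 with the stricter late set, 0.409 without UMI extremes, and, without the marked cells, 0.745, 0.752 without a low filter, 0.742 with DESeq2 size factors and 0.758 with the replicate block, with a range of -4.20 to 1.01 over all settings that left a library out). It also changed for S100a11 (0.0736 with the stricter late set and, without the marked cells, 0.397, 0.404, 0.394 and 0.394 in the same order, and -1.47 to 0.456 with a library left out). With a library left out H2-Eb1 ranged from -4.99 to 0.136 and H2-Aa from -6.14 to 0.374. Without the marked cells and without a low filter Lgals3 (0.00973), Ly6a (0.942) and Irf7 (2.13) changed sign.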
